A study of Homo sapiens with 24 samples.

Results

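ATF4 and 9 genes of the unfolded protein response, the program a cell starts when misfolded proteins gather in its endoplasmic reticulum (ER), were followed in osteosarcoma cells given THZ2. The genes were ATF4, DDIT3, XBP1, CEBPB, ASNS, TRIB3, CHAC1, PPP1R15A, HSPA5 and DDIT4. They were taken by symbol, as every probe set of the array table that named 1 of these genes and no other. This gave 21 probe sets for 10 of the 18132 genes the table names singly. THZ2 binds covalently to CDK7, a kinase that phosphorylates RNA polymerase II during transcription, and inhibits it. SJSA-1 and U2-OS, both established human osteosarcoma lines, each received DMSO, the solvent, or THZ2 at 25, 100 or 400 nM, and RNA was taken after 6 h. Each of the 8 groups held 3 Affymetrix PrimeView arrays. The labels do not say whether 3 arrays of a group were separate cultures, so p-values measure the spread between arrays, which may be technical.

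The unfolded protein response has 3 branches, each started by a sensor in the ER membrane. PERK phosphorylates the translation factor eIF2alpha, which slows protein synthesis but favours translation of ATF4, a transcription factor that switches on genes of amino acid supply and, together with CHOP (the product of DDIT3), genes that limit or end the response. The kinase IRE1 splices XBP1 mRNA into the form that encodes an active transcription factor, and ATF6 is cut loose to act on chaperone genes such as HSPA5. The arrays read transcript amounts, so neither the splicing of XBP1 nor any protein was measured here.

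Known promoter motifs serve this response, and RefSeq promoters (GRCh38.p14, from 250 bases before to 50 after each start) were searched for them. The stretches that hold one are shown because the genes that carry them went different ways below. Promoter windows were found for 10 of 10 genes, 17 windows in all, and both strands were searched. The C/EBP-ATF response element, to which ATF4 binds with C/EBP partners, was searched as TGATGNAAN and was found in ASNS and CHAC1. The ER stress response element, which answers to ATF6, was searched as CCAAT and CCACG with 9 free bases between them and was found in HSPA5 and XBP1. Capitals mark the fixed letters of a match, its free positions being left in lower case, and all 4 stretches run 5′ to 3′ on the gene's strand. In CHAC1 the motif lies on the opposite strand.
ASNS promoter, chr7:97872449-97872496, minus strand: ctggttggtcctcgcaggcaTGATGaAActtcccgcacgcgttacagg
CHAC1 promoter, chr15:40953242-40953289, plus strand: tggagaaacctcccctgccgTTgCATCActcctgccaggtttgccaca
HSPA5 promoter, chr9:125241371-125241429, minus strand: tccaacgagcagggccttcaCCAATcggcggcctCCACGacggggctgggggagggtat
XBP1 promoter, chr22:28800583-28800641, minus strand: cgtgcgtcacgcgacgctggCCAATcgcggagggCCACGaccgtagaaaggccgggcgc

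Counted from the transcription start, the matches began at -68 in ASNS, -210 in CHAC1, -66 in HSPA5 and -52 in XBP1. Of all 35116 RefSeq promoter windows, 3.61% held the C/EBP-ATF response element and 0.0769% the ER stress response element. The second ER stress response element, searched as ATTGG and CCACG with 1 free base between them, was in 0.0541% of windows, and the unfolded protein response element, searched as TGACGTGG, in 0.729%. Neither was matched in the windows of the 10 genes. A match describes these letters and says nothing of binding in these cells. Motifs further from a start or with other letters were not searched, so a gene without a match may still have one.

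The deposited values are intensities on a linear scale. A change below is a difference of means on the log2 scale of intensity plus 16, given with its standard error, with 3 arrays in each group. It understates the change of dim genes. Where a gene has several probe sets, the one with the highest mean stands for it unless others are named. ATF4, XBP1, CEBPB, PPP1R15A and DDIT4 have 1 probe set each, so agreement between probe sets could not be checked for them. "Rose" and "fell" mean an adjusted p under 0.05, from a limma model fitted to 16175 genes with Benjamini-Hochberg adjustment, and all 10 genes passed its filter on low values. The median array intensity was 23.4 to 25.5 in the 12 SJSA-1 arrays and 33.5 to 34.5 in 9 U2-OS arrays, but 36.6 to 37.3 in the 3 U2-OS arrays at 400 nM. Pairs of those 9 arrays held identical values at 1.67% to 5.47% of probe sets, but pairs of 1 of them and 1 of these 3 at 0.00405% or less. The U2-OS arrays at 400 nM were therefore taken as normalized apart, and in U2-OS the 400 nM dose and the normalization cannot be told apart. The same holds for any level set between the lines. Of the 9 mesenchymal and osteosarcoma markers, 8 or 9 lay above the filter on low values in each SJSA-1 group and 7 or 8 in each U2-OS group. The group means of COL1A2 (8.60) and TWIST1 (6.26) with DMSO in U2-OS lay below it, as did that of SPP1 (10.9) with DMSO in SJSA-1. RUNX2 averaged 22.2 at 400 nM in SJSA-1, against 105 with DMSO, and 74.3 in U2-OS, against 153. The 9 mesenchymal and osteosarcoma markers summed to 10569 to 14714 per array, most of it from VIM and SPARC. Those of blood summed to 68.1 to 199.6, and 3 of 5 lay above the filter in each U2-OS group and 1 or 2 in each SJSA-1 group. HBB was the highest of them, at group means of 48.2 to 90.1, and PTPRC lay at 3.39 to 6.51. With DMSO in U2-OS, CD74 averaged 33.8 and CD3E 32.2. Those of epithelium summed to 2734 to 5194, mostly KRT8 and KRT18. Those of nervous tissue summed to 109 to 144 in SJSA-1, mostly GFAP and SNAP25, with NEFL at group means of 2.85 to 2.99. In U2-OS they summed to 663 to 929, mostly NEFL. With DMSO in U2-OS 5 of the 7 on the array lay above the filter, GFAP averaging 84.2, OLIG2 79.9 and SNAP25 67.8. The part of these markers in the results was not tested.

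From 100 nM upward 5 to 7 of the 10 transcripts fell in each line. XBP1, TRIB3, CEBPB and DDIT3 fell at both 100 and 400 nM in both lines. ASNS was the one that rose at both doses in both lines on the deposited scaling. With arrays centred on spike-in RNA it was called at neither dose in either line, and at 400 nM in SJSA-1 it was at -0.22. ATF4 was lower at 100 than at 400 nM on the deposited scaling, in U2-OS across arrays normalized apart. Centred on the spike-in RNA, this step was 0.24 in SJSA-1 and 0.34 in U2-OS, called in neither. At 100 nM 6 of 10 genes fell and 1 rose in SJSA-1, where 25.1% of all genes tested fell and 24.4% rose. At the same dose 5 fell and 1 rose in U2-OS, where 22.2% of all genes fell and 19.8% rose. The median change of the 10 genes at 100 nM was -0.69 in SJSA-1 and -0.24 in U2-OS, against 0.057 and 0.058 over all genes.

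At 400 nM 7 genes fell and 1 rose in SJSA-1, where 24.9% of all genes fell and 41.4% rose. In U2-OS 6 fell and 2 rose at 400 nM, where 25.0% of all genes fell and 48.4% rose. The median change of the 10 genes was then -1.21 in SJSA-1 and -0.36 in U2-OS, against 0.10 and 0.15 over all genes. At 25 nM 3 genes fell and none rose in SJSA-1, where 6.28% of all genes fell and 1.97% rose, and 4 of the 10 had an unadjusted p under 0.05. In U2-OS limma called 0 of 10 at 25 nM, where 0.0556% of all genes fell and 0.0247% rose, and 1 had an unadjusted p under 0.05. Of all genes tested, 17.6%, 54.8% and 62.4% did not overlap with DMSO, in either direction, at 25, 100 and 400 nM in SJSA-1. Of the 10 genes 3, 7 and 7 did not. In U2-OS these shares were 24.0%, 65.6% and 81.5%, against 4, 6 and 9 of the 10 genes.

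**Figure D1:**
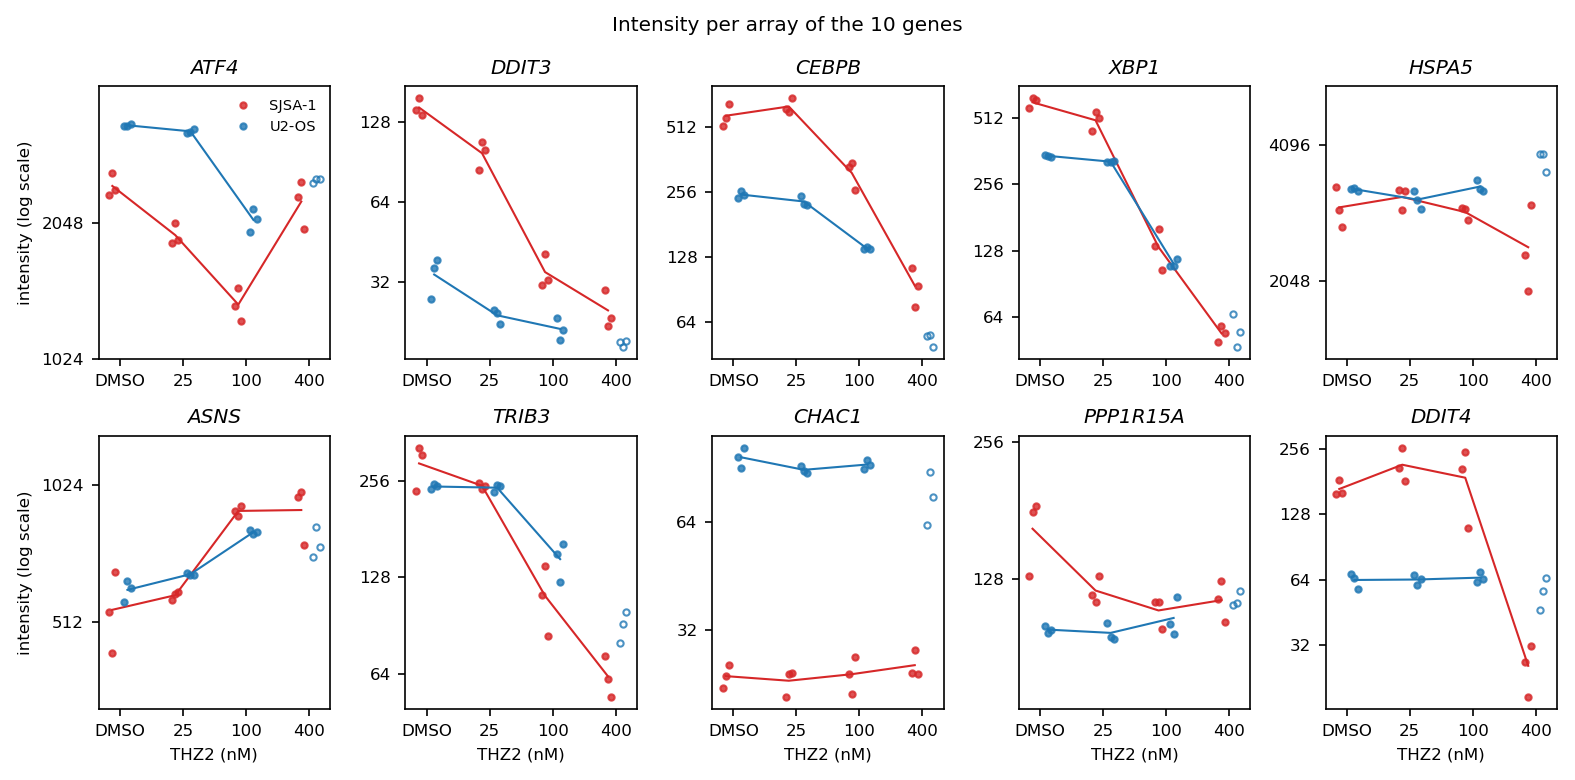
Intensity of each of the 10 genes on every array (points, log axis) by THZ2 dose in nM, with DMSO at the left of each panel, in SJSA-1 (red) and U2-OS (blue). Lines join the means of groups normalized together, and the open blue points are the U2-OS arrays at 400 nM, normalized apart. XBP1 fell to 133 ± 27.6 at 100 nM in SJSA-1, against 601 ± 32.6 with DMSO (SD, n = 3), and ATF4 has its lowest points at 100 nM in both lines.

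ATF4 itself, the transcription factor at the end of the eIF2alpha branch, went down and then partly back up with dose on the deposited scaling. It was read by 1 probe set. In SJSA-1 it read 2353, 2628 and 2419 with DMSO, 1846, 2048 and 1872 at 25 nM, 1342, 1468 and 1243 at 100 nM, and 2336, 2521 and 1978 at 400 nM. The arrays at 100 nM were the lowest of the line, and those at 400 nM overlapped those with DMSO. In U2-OS it read 3346, 3348 and 3373 with DMSO, 3221, 3244 and 3297 at 25 nM, 1952, 2189 and 2087 at 100 nM, and 2507, 2555 and 2556 at 400 nM. Again the arrays at 100 nM were lowest, and those at 400 nM lay between them and the DMSO arrays without overlap.

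ATF4 fell by 0.36 ± 0.070 at 25 nM in SJSA-1 (adjusted p = 0.00096, limma), but was not called there on the spike-in scaling described below (-0.44). At 100 nM it fell in both lines, with changes of -0.86 ± 0.070 in SJSA-1 and -0.69 ± 0.070 in U2-OS and adjusted p of 3.4e-11 and 3.9e-09 from limma. At 400 nM it fell in U2-OS by 0.40 ± 0.070. Its change at 400 nM in SJSA-1 was -0.12 ± 0.070 and was not called, with limma's adjusted p at 0.13 and a 95% interval of -0.26 to 0.025. Without the second SJSA-1 array at 400 nM the same change was -0.20 and was called, with an adjusted p of 0.021, and it was called as well with arrays centred on ribosomal protein genes (-0.27) or quantile normalized together (-0.19). The step from 100 to 400 nM was itself a rise, of 0.74 ± 0.070 in SJSA-1 and 0.29 ± 0.070 in U2-OS.

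That second SJSA-1 array at 400 nM stood apart on the poly-A spike-ins, bacterial transcripts that go into the RNA ahead of labelling. Their mean log2 intensity was 7.84, 8.90 and 7.38 on the 3 arrays of that group, against 6.74, 7.15 and 7.39 with DMSO. It was 7.63, 7.50 and 7.50 at 100 nM in SJSA-1. In U2-OS it was 6.33, 6.36 and 6.37 at 100 nM, against 6.00, 6.00 and 5.99 with DMSO. The spike-ins were thus higher at 100 nM than with DMSO in both lines. Fewer cells and less RNA per cell cannot be told apart in such samples, nor from other causes, and none was tested. The SJSA-1 arrays with DMSO alone ran from 6.74 to 7.39. Centring the arrays on the spike-ins moved the median change of all genes at 100 nM to -0.39 in SJSA-1 and -0.30 in U2-OS. At 400 nM it moved to -0.84 in SJSA-1 and -0.16 in U2-OS. No fit on the spike-ins left out the second SJSA-1 array at 400 nM. Its part in the SJSA-1 values and counts at 400 nM on this scaling, here and below, was not tested.

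Under that scaling ATF4 was -1.06 at 400 nM in SJSA-1 and was called, and its step from 100 to 400 nM was 0.24 in SJSA-1 and 0.34 in U2-OS, neither called. The share of higher and lower calls over all genes depends on the scaling as well. At 100 nM in SJSA-1, 3940 genes rose and 4055 fell on the deposited scaling. The counts were 54 and 4149 on the spike-ins, 1656 and 4879 with arrays centred on ribosomal protein genes, and 5676 and 3836 with each array centred on its median. At 400 nM in SJSA-1, 6700 rose and 4034 fell as deposited, 6 and 14744 on the spike-ins, and 2367 and 5415 on ribosomal protein genes. In U2-OS, 3199 rose and 3598 fell at 100 nM as deposited, against 47 and 2987 on the spike-ins, and at 400 nM 7826 rose and 4036 fell, against 534 and 3055. Where no scaling is named below, a change is on the deposited one.

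DDIT3 encodes CHOP, a transcription factor that ATF4 induces and that promotes cell death when stress persists. Its SJSA-1 intensities were 143, 158 and 136 with DMSO, 85.0, 108 and 101 at 25 nM, 31.3, 40.8 and 32.7 at 100 nM, and 29.9, 21.9 and 23.4 at 400 nM. In U2-OS it was dim throughout, at 27.5, 36.1 and 38.9 with DMSO, 25.1, 24.6 and 22.3 at 25 nM, 23.4, 19.4 and 21.2 at 100 nM, and 19.1, 18.3 and 19.2 at 400 nM. Every THZ2 array lay below every DMSO array of its line.

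DDIT3 fell at every dose in SJSA-1, with changes of -0.51 ± 0.092 at 25 nM, -1.67 ± 0.092 at 100 nM and -1.98 ± 0.092 at 400 nM. On the spike-ins the change at 25 nM was -0.59 and was not called. In U2-OS it fell at the upper doses, with -0.42 ± 0.092 at 100 nM and -0.52 ± 0.092 at 400 nM. Its change at 25 nM in U2-OS was -0.32 ± 0.092, with an unadjusted p of 0.0017 and an adjusted p of 0.38 from limma. It was called when only the U2-OS arrays entered the fit, at an adjusted p of 0.035. Both of its probe sets fell at 100 nM in each line, at -1.67 and -1.68 in SJSA-1 and at -0.42 and -0.27 in U2-OS. The last step, from 100 to 400 nM, was a fall of 0.31 ± 0.092 in SJSA-1, which missed the threshold without the second array at 100 nM (-0.23, adjusted p = 0.10) or without the second at 400 nM (-0.26, adjusted p = 0.075). It missed it as well with SJSA-1 arrays alone in the fit (adjusted p = 0.083, limma).

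CEBPB, a bZIP transcription factor that pairs with ATF4 and CHOP, changed in the same direction in both lines but not at 25 nM. The SJSA-1 arrays gave 516, 564 and 653 with DMSO, 617, 600.5 and 695 at 25 nM, 333, 347 and 261 at 100 nM, and 114, 75.1 and 94.4 at 400 nM. Its U2-OS intensities were 241, 259.8 and 247 with DMSO, 245, 226 and 224 at 25 nM, 139, 143 and 139 at 100 nM, and 55.0, 55.7 and 49.2 at 400 nM. The arrays at 25 nM overlapped those with DMSO, whereas those at 100 and 400 nM lay below them and apart from each other. CEBPB fell in SJSA-1, with changes of -0.85 ± 0.11 at 100 nM and -2.43 ± 0.11 at 400 nM, and in U2-OS, with -0.76 ± 0.11 at 100 nM and -1.94 ± 0.11 at 400 nM. At 25 nM it was 0.14 ± 0.11 in SJSA-1 and -0.10 ± 0.11 in U2-OS, neither called.

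TRIB3, a pseudokinase that ATF4 and CHOP induce and that in turn restrains ATF4, fell from 100 nM. In SJSA-1 it read 239, 324 and 309 with DMSO, 252, 242 and 247 at 25 nM, 113, 139 and 83.9 at 100 nM, and 72.5, 61.4 and 54.2 at 400 nM. The U2-OS arrays gave 242, 250.2 and 246 with DMSO, 237, 249 and 247 at 25 nM, 152, 123 and 163 at 100 nM, and 79.9, 91.2 and 99.9 at 400 nM. The 100 and 400 nM arrays of each line lay below its DMSO arrays without overlap. TRIB3 fell in SJSA-1, with changes of -1.27 ± 0.13 at 100 nM and -1.96 ± 0.13 at 400 nM, and in U2-OS, with -0.70 ± 0.13 at 100 nM and -1.31 ± 0.13 at 400 nM.

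Its second probe set, with intensities of 25.99 to 50.9 over all 24 arrays, moved less. It changed by -0.22 ± 0.095 at 100 nM in SJSA-1 (adjusted p = 0.061, limma over 37944 probe sets) and by 0.033 ± 0.095 in U2-OS. At 400 nM it fell by 0.36 ± 0.095 in SJSA-1, and in U2-OS it changed by 0.011 ± 0.095. The falls of TRIB3 at 100 nM in both lines and at 400 nM in U2-OS thus rest on the brighter probe set.

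XBP1, the mRNA that IRE1 splices, had the largest fall of the 10 genes at 100 and at 400 nM in both lines. Its SJSA-1 intensities were 564, 626 and 613 with DMSO, 446, 541 and 508 at 25 nM, 134, 159.8 and 105 at 100 nM, and 49.5, 58.5 and 54.2 at 400 nM. In U2-OS it read 348, 344 and 341 with DMSO, 322, 322 and 327 at 25 nM, 109, 109 and 118 at 100 nM, and 65.9, 47.0 and 54.9 at 400 nM. Its arrays at 25 nM lay below those with DMSO in each line, and each further dose lay lower without overlap. At 25 nM 17.6% of all genes in SJSA-1 and 24.0% in U2-OS did not overlap with DMSO, in either direction.

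XBP1 fell in SJSA-1, with changes of -2.07 ± 0.11 at 100 nM and -3.14 ± 0.11 at 400 nM (adjusted p = 2.6e-15 and 2.3e-19, limma). In U2-OS it fell too, with -1.49 ± 0.11 at 100 nM and -2.33 ± 0.11 at 400 nM. At 25 nM the change was -0.27 ± 0.11 in SJSA-1 and -0.084 ± 0.11 in U2-OS and was not called in either line. Its promoter, printed above, holds the same ER stress response element as that of HSPA5.

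HSPA5, which encodes BiP, the main chaperone of the ER, was not called at 25 or 100 nM in either line by its brightest probe set. In SJSA-1 its brightest probe set read 3304, 2937 and 2702 with DMSO, 3259, 2937 and 3236 at 25 nM, 2978, 2957 and 2798 at 100 nM, and 2336, 1951 and 3019 at 400 nM. Its U2-OS intensities were 3279, 3293 and 3237 with DMSO, 3246, 3102 and 2955 at 25 nM, 3419, 3278 and 3246 at 100 nM, and 3903, 3903 and 3561 at 400 nM. The groups overlapped at 25 and 100 nM. At 100 nM the change was -0.030 ± 0.091 in SJSA-1, with a 95% interval of -0.22 to 0.16, and 0.019 ± 0.091 in U2-OS, with an interval of -0.17 to 0.21.

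At 400 nM HSPA5 fell by 0.31 ± 0.091 in SJSA-1, where the 3 arrays were far apart, and without the second of them the change was -0.16 with an adjusted p of 0.087. With the mean of its probe sets the adjusted p was 0.076. In U2-OS it rose by 0.21 ± 0.091 at 400 nM, at an adjusted p of 0.040 from limma. That call was lost without any 1 of 5 of the 6 arrays (adjusted p of 0.070 to 0.11). On the spike-ins the change was -0.10 and was not called. Centring on the median or on ribosomal protein genes, quantile normalization, the mean of probe sets and a fit with no trend ended that call too. Its 6 probe sets did not move alike. At 100 nM in SJSA-1 the second rose, by 0.30 ± 0.11 (adjusted p = 0.030, limma over probe sets), and the other 5 were not called. In SJSA-1 at 400 nM 3 of 6 fell, at -0.28, -0.31 and -0.51, and the other 3 lay at -0.44, -0.36 and 0.13. In U2-OS at 400 nM 3 of 6 rose, by 0.21, 0.62 and 0.69, and the other 3 lay at 0.048 to 0.17. Probe sets of HSPA5 also stood differently in the lines. The third in the plot of probe sets read 1333 to 1663 with DMSO in SJSA-1 and 232 to 247 in U2-OS, whereas the brightest overlapped between them.

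ASNS, asparagine synthetase, is a classical target of ATF4. At 100 nM it rose in both lines while ATF4 fell, on the deposited scaling. At 400 nM in SJSA-1 it rose while ATF4 was not called, also as deposited, and on the spike-ins ASNS was at -0.22 and not called. The SJSA-1 arrays gave 537, 437 and 657 with DMSO, 572, 588 and 596 at 25 nM, 898, 873 and 923 at 100 nM, and 962, 989 and 755 at 400 nM. The U2-OS arrays gave 567, 629.7 and 608 with DMSO, 655, 650.3 and 648 at 25 nM, 814, 799 and 807 at 100 nM, and 709, 829 and 747 at 400 nM. All arrays at 100 and 400 nM lay above those with DMSO of their line, and the 3 DMSO arrays of SJSA-1 were spread widely.

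ASNS rose by 0.73 ± 0.10 at 100 nM in SJSA-1 and by 0.41 ± 0.10 in U2-OS, whereas on the spike-in scaling these changes were 0.28 and 0.056 and neither was called. At 400 nM it rose by 0.72 ± 0.10 in SJSA-1, which was -0.22 on the spike-ins and not called (adjusted p = 0.40, limma). That group holds the array whose spike-ins stood apart (8.90). In U2-OS ASNS rose by 0.33 ± 0.10 at 400 nM, which was 0.017 on the spike-ins and 0.19 with joint quantile normalization, neither called. All 4 of its probe sets rose at 100 nM on the deposited scaling, by 0.73 to 0.95 in SJSA-1 and by 0.41 to 0.55 in U2-OS. At 400 nM 4 of 4 rose in SJSA-1 and 3 of 4 in U2-OS, the other at -0.012 ± 0.10. At 25 nM ASNS changed by 0.12 ± 0.10 in SJSA-1 and 0.11 ± 0.10 in U2-OS and was not called.

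CHAC1, an enzyme that breaks down glutathione, also has a C/EBP-ATF response element, but it did not move with ASNS. In SJSA-1 it was dim, with 22.2, 23.9 and 25.6 under DMSO, 20.97, 24.3 and 24.4 at 25 nM, 24.3, 21.3 and 27.1 at 100 nM, and 24.4, 28.2 and 24.3 at 400 nM. In U2-OS it read 97.2, 90.6 and 102 with DMSO, 91.6, 88.8 and 87.4 at 25 nM, 89.9, 95.2 and 91.8 at 100 nM, and 62.7, 88.3 and 75.2 at 400 nM. In SJSA-1 all groups overlapped, and in U2-OS the arrays at 400 nM lay below those with DMSO. At 100 nM the change was 0.0091 ± 0.084 in SJSA-1 and -0.056 ± 0.084 in U2-OS, with 95% intervals of -0.16 to 0.18 and -0.23 to 0.12. At 400 nM CHAC1 fell in U2-OS, at -0.31 ± 0.084, and so did its second probe set, at -0.43 ± 0.065, but on the spike-ins the change of the gene, -0.62, was not called. Its change at 400 nM in SJSA-1 was 0.061 ± 0.084 as deposited and -0.88 on the spike-ins, where it was called.

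**Figure D2:**
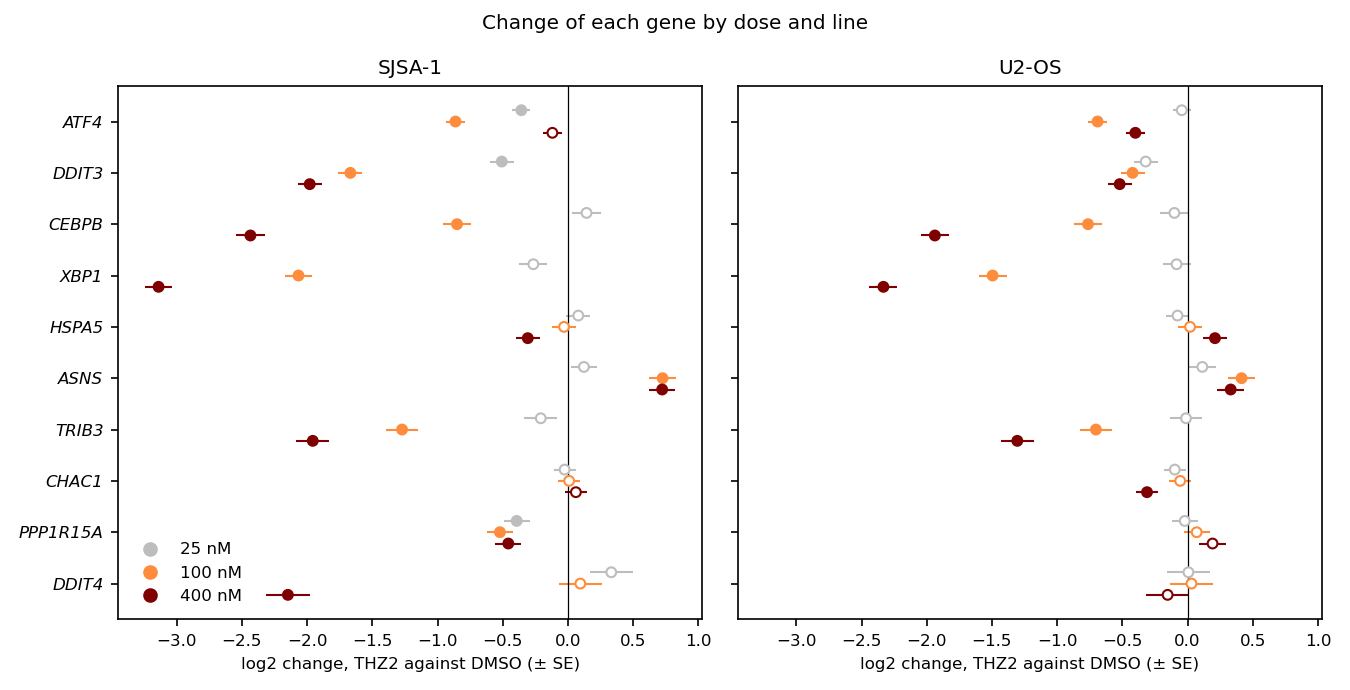
log2 change of each gene against DMSO (points, with bars for ± SE) at 25, 100 and 400 nM THZ2 in SJSA-1 (left) and U2-OS (right). Filled points passed the adjusted threshold. XBP1 lies furthest to the left at 100 and 400 nM in both lines. ASNS lies to the right of 0 on this scaling, though on the spike-ins at 400 nM in SJSA-1 it was at -0.22, not called. DDIT4 at 400 nM is at -2.15 in SJSA-1 and -0.15 in U2-OS.

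PPP1R15A encodes GADD34, which brings a phosphatase to eIF2alpha and so ends the PERK signal. In SJSA-1 it read 129.8, 179.8 and 185 with DMSO, 118, 114 and 129.8 at 25 nM, 114, 114 and 99.0 at 100 nM, and 115, 126 and 103 at 400 nM. Its U2-OS intensities were 101, 97.0 and 98.7 with DMSO, 102, 95.3 and 94.3 at 25 nM, 101, 96.5 and 116 at 100 nM, and 112, 113 and 120.3 at 400 nM. The THZ2 arrays lay at or below the lowest DMSO array in SJSA-1, and in U2-OS those at 400 nM lay above the DMSO arrays.

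PPP1R15A fell in SJSA-1, with changes of -0.52 ± 0.10 at 100 nM and -0.46 ± 0.10 at 400 nM. It fell there by 0.39 ± 0.10 at 25 nM (adjusted p = 0.012, limma), a call lost without the second DMSO array (-0.33, adjusted p = 0.087), without the third (-0.31, adjusted p = 0.095) and without the second array at 25 nM (-0.36, adjusted p = 0.058). With SJSA-1 arrays alone in the fit its adjusted p was 0.12 (limma), and on the spike-ins the change, -0.47, was not called. In U2-OS the changes were 0.070 ± 0.10 at 100 nM and 0.19 ± 0.10 at 400 nM, with adjusted p of 0.58 and 0.088 from limma. The change at 400 nM was called when only the U2-OS arrays entered the fit (adjusted p = 0.013, limma).

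DDIT4, or REDD1, restrains the growth kinase complex mTORC1 and is induced by ATF4 and by other stresses. Its SJSA-1 intensities were 159, 184 and 159.8 with DMSO, 209, 258 and 182 at 25 nM, 208, 247 and 111 at 100 nM, and 26.7, 18.5 and 31.8 at 400 nM. The U2-OS arrays gave 68.2, 65.2 and 57.9 with DMSO, 67.6, 60.6 and 64.1 at 25 nM, 62.4, 69.7 and 64.1 at 100 nM, and 46.4, 56.6 and 65.2 at 400 nM. The SJSA-1 arrays at 400 nM lay far below all others of the line, and the third array at 100 nM lay far below its other two.

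DDIT4 fell by 2.15 ± 0.17 at 400 nM in SJSA-1 (adjusted p = 8.1e-12, limma), and its step from 100 to 400 nM was -2.24 ± 0.17, also called. At 100 nM in SJSA-1 its change was 0.095 ± 0.17 and was not called, but without the third array at that dose it was 0.41 and was called, with an adjusted p of 0.013. At 25 nM in SJSA-1 it was 0.33 ± 0.17, not called. The step from 25 to 100 nM was called without the second array at 100 nM, at -0.45 with an adjusted p of 0.031. In U2-OS its changes were 0.030 ± 0.17 at 100 nM and -0.15 ± 0.17 at 400 nM, the second with a 95% interval of -0.50 to 0.19.

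**Figure D3:**
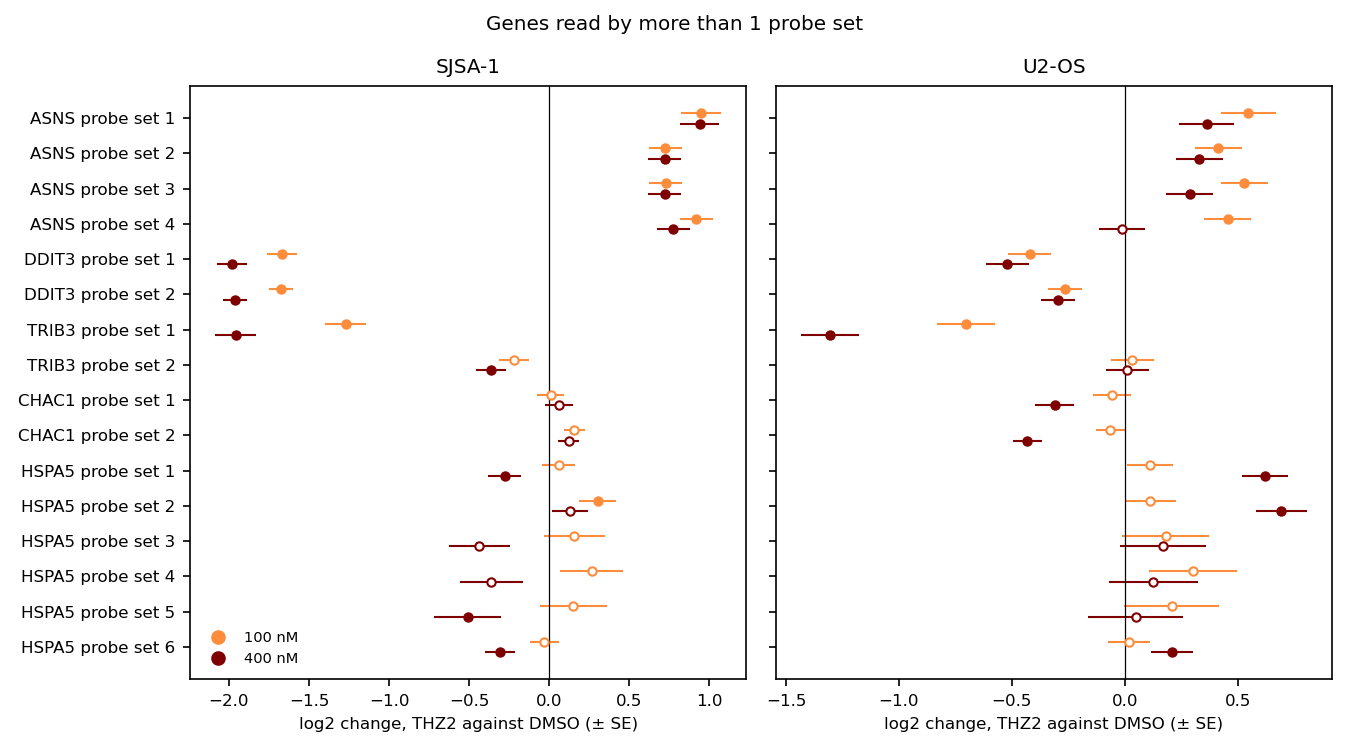
log2 change against DMSO (points, with bars for ± SE) of each probe set of the 5 genes read by several, at 100 and 400 nM THZ2 in SJSA-1 (left) and U2-OS (right), each panel with its own axis. Filled points passed the threshold over 37944 probe sets. All 4 sets of ASNS and both of DDIT3 agree in sign at 100 nM, whereas the second set of TRIB3 stays near 0 in U2-OS and the 6 sets of HSPA5 lie between -0.51 and 0.13 at 400 nM in SJSA-1.

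Between neighbouring doses the order of levels was as follows. From 25 to 100 nM 6 of 10 genes changed in SJSA-1, against 41.6% of all genes tested, and 5 in U2-OS, against 48.1%. XBP1, CEBPB, TRIB3 and ATF4 fell and ASNS rose in both lines at this step, and DDIT3 fell in SJSA-1, by 1.16 ± 0.092. For XBP1 the step was -1.80 ± 0.11 in SJSA-1 and -1.41 ± 0.11 in U2-OS. The ASNS step in U2-OS was 0.30 ± 0.10 as deposited. On the spike-ins it was -0.018 in U2-OS and 0.24 in SJSA-1, neither called.

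From 100 to 400 nM 7 of 10 changed in SJSA-1, against 26.6% of all genes, and 5 in U2-OS, against 64.6%. In both lines XBP1, CEBPB and TRIB3 fell further while ATF4 rose. On the spike-ins the ATF4 step was called in neither line, and the TRIB3 step in U2-OS was not called (-0.56, adjusted p = 0.14, limma). CEBPB had the largest of these 3 falls in each line, at -1.58 ± 0.11 in SJSA-1 and -1.17 ± 0.11 in U2-OS. ASNS was not called at this step in SJSA-1, at -0.0031 ± 0.10 with a 95% interval of -0.21 to 0.20, nor in U2-OS, at -0.084 ± 0.10, though in U2-OS it was called with joint quantile normalization (-0.27) and with the mean of probe sets (-0.24). CHAC1 fell by 0.25 ± 0.084 in U2-OS, a call lost without the first U2-OS array at 400 nM (-0.15, adjusted p = 0.12) and on the spike-ins (-0.21, adjusted p = 0.69). The HSPA5 fall of 0.28 ± 0.091 at this step in SJSA-1 was lost without the second array at 400 nM, when it was -0.13 with an adjusted p of 0.30, and without the first array at 400 nM or either the first or second at 100 nM (adjusted p of 0.072 to 0.075).

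The effect of a dose was compared between the lines as an interaction, the SJSA-1 effect minus the U2-OS effect. At 25 nM limma called 0 of 10, against 1.09% of all genes, and 2 had an unadjusted p under 0.05. These were ATF4, at -0.31 ± 0.099, and PPP1R15A, at -0.37 ± 0.14. Without the first SJSA-1 DMSO array PPP1R15A was at -0.52 and was called, with an adjusted p of 0.021.

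At 100 nM, where both effects were measured within a set of arrays normalized together, 4 of 10 differed, against 16.9% of all genes. DDIT3 differed by -1.25 ± 0.13 (adjusted p = 5.7e-08, limma), its effect being -1.67 in SJSA-1 and -0.42 in U2-OS. It was dim in U2-OS with DMSO, where the 16 added to each value shrinks a change. PPP1R15A differed by -0.59 ± 0.14, XBP1 by -0.57 ± 0.15 and TRIB3 by -0.57 ± 0.18. TRIB3 missed the threshold without any 1 of 6 arrays: SJSA-1 DMSO arrays 2 and 3, SJSA-1 array 3 at 100 nM, U2-OS DMSO array 1 and U2-OS arrays 1 and 3 at 100 nM. Its difference was then -0.40 to -0.56 at adjusted p of 0.054 to 0.11 (limma). On the spike-ins none of the 4 was called, though each lay further from 0. DDIT3 was at -1.33 (adjusted p = 0.064, limma), PPP1R15A at -0.68, XBP1 at -0.66 and TRIB3 at -0.65. Over all genes 12 differences were called above 0 and 47 below 0 on that scaling.

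The other 6 genes were not called at 100 nM. ASNS differed by 0.31 ± 0.14, with a 95% interval of 0.017 to 0.61 and an adjusted p of 0.15 from limma. Without the third SJSA-1 DMSO array it was at 0.45 and called, with an adjusted p of 0.015. ATF4 differed by -0.17 ± 0.099, with an interval of -0.38 to 0.032, and was called with arrays centred on ribosomal protein genes (-0.27, adjusted p = 0.043, limma). CEBPB differed by -0.087 ± 0.16, with an interval of -0.41 to 0.23. At 400 nM limma called all 10, against 45.9% of all genes, but the U2-OS effect there cannot be told apart from its normalization. DDIT4 had the largest difference, -1.99 ± 0.24, followed by DDIT3 at -1.46 ± 0.13.

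The wider pathway was read from 6 lists of genes, whose counts stand against 24.4% risen and 25.1% fallen over all genes at 100 nM in SJSA-1, and 19.8% and 22.2% in U2-OS. At 400 nM these shares were 41.4% and 24.9% in SJSA-1, and 48.4% and 25.0% in U2-OS. With arrays centred on their median or quantile normalized together, the risen counts of each list stayed close to the deposited ones at both doses. Of 21 amino acid supply and tRNA synthetase genes tested, 9 rose and 1 fell at 100 nM in SJSA-1, with a median change of 0.15, against 0.057 over all genes. In U2-OS 3 rose and 3 fell at 100 nM, with a median of 0.0041. CTH, which makes cysteine, rose by 0.95 ± 0.099 in SJSA-1 and 0.54 ± 0.099 in U2-OS. PHGDH, the first enzyme of serine synthesis, rose by 0.52 ± 0.11 in SJSA-1 and 0.32 ± 0.11 in U2-OS. CARS1, a cysteinyl tRNA synthetase gene, fell, at -0.26 ± 0.089 in SJSA-1, which was not called with joint quantile normalization, and -0.61 ± 0.089 in U2-OS. On ribosomal protein genes 5 of the list rose and 1 fell at 100 nM in SJSA-1, and on the spike-ins none rose and 1 fell, with PHGDH at 0.072 in SJSA-1 and -0.041 in U2-OS and CTH not called in either line. At 400 nM 12 rose and 2 fell in SJSA-1, and 12 rose and 3 fell in U2-OS. On the spike-ins 0 rose and 15 fell at 400 nM in SJSA-1, with a list median of -0.74, and in U2-OS no gene of the list was called. On ribosomal protein genes 6 rose and 2 fell in SJSA-1, with median centring 14 and 1, and with joint quantile normalization 11 and 2.

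Of 26 further targets of ATF4 and CHOP, 9 rose and 11 fell at 100 nM in SJSA-1, and 5 rose and 9 fell in U2-OS, where the share that rose was near that of all genes. On the spike-ins 1 rose and 12 fell in SJSA-1, and 1 rose and 7 fell in U2-OS. The stress-induced transcription factor gene ATF3 rose by 0.99 ± 0.080 in SJSA-1 and by 1.36 ± 0.080 in U2-OS, the rise in SJSA-1 not being called on the spike-ins (0.55). GDF15, a secreted stress hormone, rose by 1.31 ± 0.13 in SJSA-1 and by 0.43 ± 0.13 in U2-OS, the rise in U2-OS not being called on the spike-ins (0.074). The amino acid transporter gene SLC7A1 fell, at -1.03 ± 0.093 in SJSA-1 and -1.02 ± 0.093 in U2-OS. The death receptor gene TNFRSF10B fell, at -0.69 ± 0.11 in SJSA-1 and -2.09 ± 0.11 in U2-OS, and this difference between the lines passed the test (1.40 ± 0.16, adjusted p = 2.4e-07, limma). At 400 nM 10 rose and 12 fell in SJSA-1, and 11 rose and 11 fell in U2-OS. Centred on the spike-ins, 0 rose and 21 fell at 400 nM in SJSA-1, and 1 rose and 9 fell in U2-OS, while on ribosomal protein genes 5 rose and 13 fell in SJSA-1. SESN2, another restrainer of mTORC1, then fell, at -1.97 ± 0.11 in SJSA-1 and -2.05 ± 0.11 in U2-OS.

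Of 17 ER chaperones and folding enzymes 7 rose and 3 fell at 100 nM in each line, with medians of 0.17 in SJSA-1 and 0.21 in U2-OS. Leaving out 1 array moved the risen ones to 4 to 8 in SJSA-1 and 5 to 9 in U2-OS. In SJSA-1 1 rose and 3 fell on ribosomal protein genes, and on the spike-ins none rose and 3 fell in either line. HYOU1, a large ER chaperone, was at 0.091 ± 0.087 in SJSA-1 and rose by 0.51 ± 0.087 in U2-OS, where it was not called on the spike-ins (0.15). DNAJB9, a BiP cochaperone and a target of spliced XBP1, fell, at -0.41 ± 0.095 in SJSA-1 and -0.64 ± 0.095 in U2-OS, and SDF2L1 was at -0.67 ± 0.11 in SJSA-1 and -0.32 ± 0.11 in U2-OS, called in both. At 400 nM 7 rose and 4 fell in SJSA-1, the risen ones numbering 4 to 10 without 1 array. With spike-in scaling 0 rose and 17 fell there, and on ribosomal protein genes 1 rose and 5 fell. In U2-OS 14 rose and 1 fell at 400 nM, against 2 and 1 on the spike-ins. With median centring the counts were 13 and 1, and with joint quantile normalization 12 and 1. PDIA4, a disulfide isomerase, rose by 1.24 ± 0.098 at 400 nM in U2-OS.

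Of 17 genes of ER-associated degradation 4 rose and 7 fell at 100 nM in each line, the share that rose being near that of all genes. On the spike-ins 0 rose and 7 fell in SJSA-1, and 0 rose and 5 fell in U2-OS, while on ribosomal protein genes 1 rose and 7 fell in SJSA-1. Leaving out 1 array gave 2 to 4 risen genes in SJSA-1. SYVN1, the ubiquitin ligase at the core of that pathway, fell, at -1.03 ± 0.11 in SJSA-1 and -0.74 ± 0.11 in U2-OS. HERPUD1, its partner, fell, at -1.03 ± 0.13 in SJSA-1 and -0.82 ± 0.13 in U2-OS. So did the mannosidase-like gene EDEM3, at -0.89 ± 0.14 in SJSA-1 and -1.29 ± 0.14 in U2-OS, and these 3 fell on all 5 scalings. DERL1, a channel component, rose by 0.73 ± 0.079 in SJSA-1 and 0.57 ± 0.079 in U2-OS, but was not called at 100 nM on the spike-ins (0.28 in SJSA-1, 0.21 in U2-OS). At 400 nM 5 rose and 4 fell in SJSA-1, and 9 rose and 5 fell in U2-OS. Centred on the spike-ins, 0 rose and 17 fell at 400 nM in SJSA-1, and 0 rose and 4 fell in U2-OS, while on ribosomal protein genes 2 rose and 7 fell in SJSA-1. Leaving out 1 array gave 4 to 7 fallen genes in SJSA-1.

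Of 15 sensor, eIF2alpha kinase and eIF2B genes 3 rose and 3 fell at 100 nM in SJSA-1, and 3 rose and 4 fell in U2-OS. With spike-in scaling 0 rose and 5 fell in SJSA-1, and 0 rose and 2 fell in U2-OS, while on ribosomal protein genes 1 rose and 5 fell in SJSA-1. EIF2AK3, which encodes PERK, fell at 100 nM, at -0.84 ± 0.11 in SJSA-1 and -0.27 ± 0.11 in U2-OS, where ribosomal, spike-in and quantile scaling each ended the call. At 400 nM it was at -1.45 ± 0.11 in SJSA-1 and -2.18 ± 0.11 in U2-OS, called in both. MBTPS2, a protease that frees ATF6, fell by 0.84 ± 0.10 at 100 nM in U2-OS and was at -0.24 ± 0.10, not called, in SJSA-1. At 400 nM 6 rose and 3 fell in SJSA-1, and 7 rose and 4 fell in U2-OS. On the spike-ins 0 rose and 12 fell at 400 nM in SJSA-1, and 1 rose and 3 fell in U2-OS, while on ribosomal protein genes 3 rose and 4 fell in SJSA-1.

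Of 15 paralogues and bZIP partners, 3 of which are also among the further targets, 2 rose and 6 fell at 100 nM in SJSA-1, and 1 rose and 6 fell in U2-OS. Centred on the spike-ins, 0 rose and 7 fell in SJSA-1, and 1 rose and 6 fell in U2-OS. PPP1R15B, the constitutive counterpart of PPP1R15A, fell, at -1.84 ± 0.11 in SJSA-1 and -1.52 ± 0.11 in U2-OS. CHAC2, the paralogue of CHAC1, fell as well, at -0.92 ± 0.12 in SJSA-1 and -1.46 ± 0.12 in U2-OS. At 400 nM 2 rose and 7 fell in SJSA-1, and 4 rose and 7 fell in U2-OS. With spike-in scaling 0 rose and 15 fell at 400 nM in SJSA-1, and 0 rose and 7 fell in U2-OS, while on ribosomal protein genes 0 rose and 9 fell in SJSA-1. Leaving out 1 array gave 0 to 4 risen genes in SJSA-1. TRIB1, the paralogue of TRIB3, then fell, at -2.47 ± 0.13 in SJSA-1 and -1.48 ± 0.13 in U2-OS. NFE2L2, another substrate of PERK, was at -1.76 ± 0.14 in SJSA-1 and -2.04 ± 0.14 in U2-OS, called in both.

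**Figure D4:**
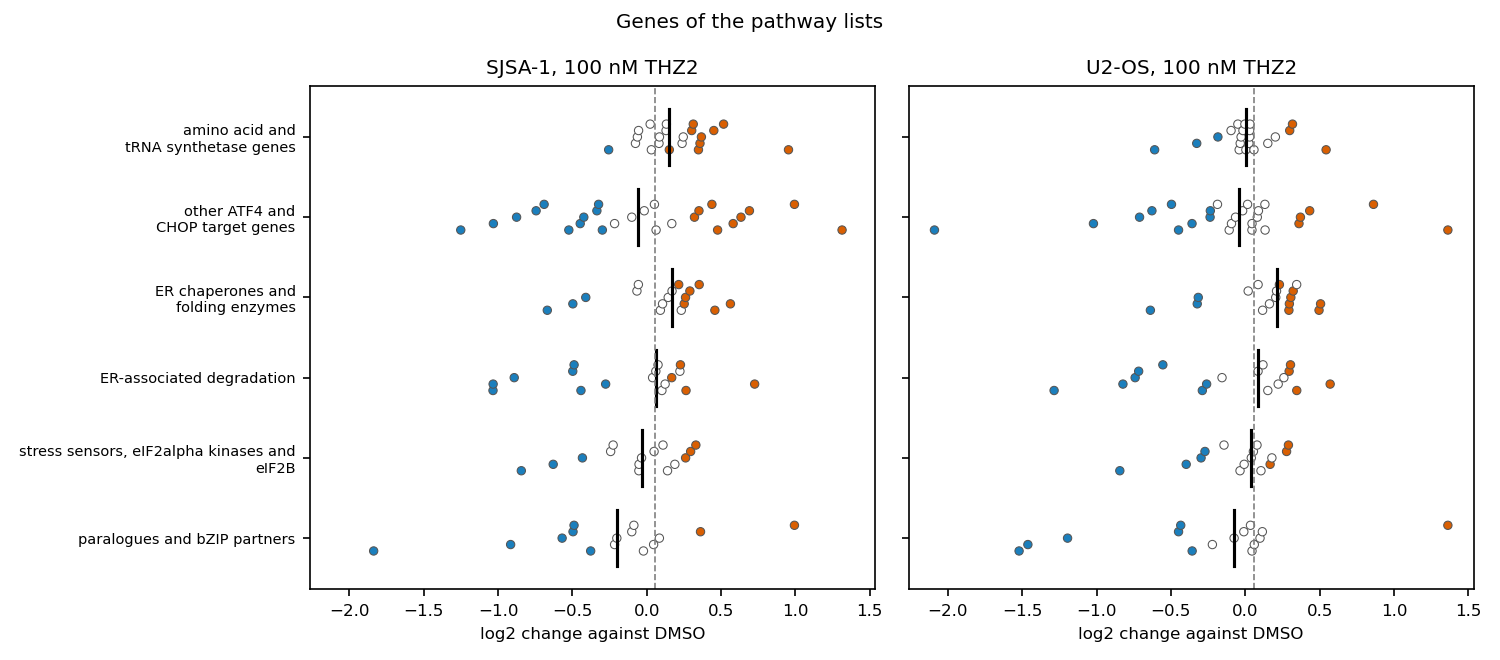
log2 change at 100 nM THZ2 against DMSO of every tested gene of 6 pathway lists (points) in SJSA-1 (left) and U2-OS (right). Orange points rose and blue points fell on the deposited scaling, black bars are list medians and the dashed line is the median of all genes tested (0.057 and 0.058). Every list holds genes on both sides, and on the spike-in scaling 1 gene of the 6 lists rose in SJSA-1 and 1 in U2-OS.

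The genes whose pattern was most like each of the 10 were sought over the 21 arrays outside the U2-OS 400 nM group, each gene centred within its line. These arrays share dose groups and normalization, so Pearson's r is given as a description. XBP1 was nearest to RTL6 (r = 0.993) and TRIM32 (r = 0.992), CEBPB to KLF2 (r = 0.994) and TRIB3 to TBC1D10A (r = 0.993). DDIT3 was nearest to FOSL2 (r = 0.9748) and DDIT4 to FASTKD5 (r = 0.986). ATF4, lowest at 100 nM, was nearest to PIP4K2B (r = 0.973) and MSRB1 (r = 0.969), and ASNS to LSM3 (r = 0.963). The nearest patterns of PPP1R15A (AP4M1, r = 0.917), HSPA5 (ATP2A2, a calcium pump of the ER, r = 0.892) and CHAC1 (GPR85, r = 0.801) were less close. Among the 10 genes themselves TRIB3 and XBP1 were nearest, at r = 0.980, and ASNS and XBP1 were at r = -0.886. ATF4 had an r of 0.436 with XBP1, 0.408 with DDIT3 and -0.546 with ASNS.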

How the data were processed

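RNA of 24 samples was read on PrimeView arrays. The authors deposited 1 linear intensity for every probe set in each sample. Per the submitters' processing notes MAS5 and RMA were used, without versions or which made these values. The labels' treatment protocol names TRIzol for these cells, while their extraction protocol names a kit and another tissue, so marker lists were checked.

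Of 49372 probe sets, 44988 naming 1 gene were used. Values were taken as log2 of intensity plus 16, a gene being read by its probe set of highest mean. Genes with a highest group mean under the 30th percentile of all values (an intensity of 12.7) were left out, leaving 16175. limma 3.58.1 in R 4.3.3 was fitted to 8 group means with an intensity trend (16 residual degrees of freedom, 13 contrasts), with Benjamini-Hochberg adjustment over all genes of a contrast and a threshold of 0.05. The script was tested on simulated data. Each member probe set was also fitted alone. The number of arrays limits the precision.

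Named genes were all 10 members, at most the 2 called genes with the largest rise and the 2 with the largest fall per list and dose, and the 2 nearest patterns per member, of which a part is given. The members and lists were chosen with earlier results of these data known. Alternatives were 4 other scalings (array median, poly-A spike-ins, ribosomal protein genes, joint quantile), no filter and a 50th percentile filter, pseudocounts of 1 and 64, the mean of probe sets, no trend, a replicate block, fits without the U2-OS 400 nM group or of 1 line, and leaving out each array. Applying scalings and left-out arrays to the lists was chosen after seeing the data.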

Additional observations from a re-analysis of the deposited data

Results flagged for a closer look

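The effect of THZ2 differed between the lines, by limma's interaction test, for 4 of the 10 genes at 100 nM, against 16.9% of all genes tested. On the spike-in scaling none of these 4 was called, though each lay further from 0. DDIT3 was then at -1.33, PPP1R15A at -0.68, XBP1 at -0.66 and TRIB3 at -0.65. As deposited, the SJSA-1 effect minus the U2-OS effect was -1.25 ± 0.13 for DDIT3, -0.59 ± 0.14 for PPP1R15A, -0.57 ± 0.15 for XBP1 and -0.57 ± 0.18 for TRIB3 (SE). PPP1R15A fell by 0.52 in SJSA-1 and was at 0.070 in U2-OS, where it was not called.

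At 400 nM the difference passed the test for all 10 genes, against 45.9% of all genes tested, in a comparison where the U2-OS dose and its normalization cannot be told apart. It was negative for DDIT4 (-1.99 ± 0.24), DDIT3 (-1.46 ± 0.13), XBP1 (-0.81 ± 0.15), TRIB3 (-0.65 ± 0.18), PPP1R15A (-0.65 ± 0.14), HSPA5 (-0.52 ± 0.13) and CEBPB (-0.50 ± 0.16). CEBPB was not called with median centring (-0.37), joint quantile normalization (-0.18) or a pseudocount of 1 (-0.41), nor TRIB3 with joint quantile normalization (-0.34). It was positive for ASNS (0.39 ± 0.14), CHAC1 (0.37 ± 0.12) and ATF4 (0.28 ± 0.099). These 3 were below 0 on the spike-in scaling but not called there, nor were they called on ribosomal protein genes. Leaving out 1 array ended the call for ASNS in 7 of 12 fits, for ATF4 in 3 and for CHAC1 in 1.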

How the results depend on the processing

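Of 770 changes of single genes against DMSO under other settings, 747 kept their direction and side of the threshold, as did 349 of 360 that left out 1 array. Counts moved by over 1.5 times mainly on the poly-A spike-ins. There the risen genes were 0 at 100 and at 400 nM in both lines, the called genes 5 at 400 nM in U2-OS and 2 in its step from 100 to 400 nM, the fallen genes 0 of 3 at 25 nM in SJSA-1, and the line differences 0 at 100 nM. Values with the other sign on the spike-ins were, at 400 nM, HSPA5 in U2-OS (-0.10), and ASNS (-0.22) and CHAC1 (-0.88) in SJSA-1. So were the ASNS step from 25 to 100 nM in U2-OS (-0.018) and the line differences at 400 nM of ATF4 (-0.35), ASNS (-0.24) and CHAC1 (-0.26). Of all these, only the CHAC1 change in SJSA-1 was called on the spike-ins. The cause was not tested. Risen genes at 400 nM in U2-OS were 1 with median or ribosomal centring, the mean of probe sets or no trend, 0 with joint quantile normalization, and 1 to 2 leaving out 1 array. With the arrays of 1 line in the fit, 1 gene fell at 25 nM in U2-OS. Leaving out 1 array gave 1 to 2 risen genes at 100 nM in SJSA-1 and 0 to 1 line differences at 25 nM. Correlations between same-numbered arrays ran from -0.63 to 0.42, which alone cannot show whether replicate numbers pair the arrays. With the replicate block the counts stayed at 7 called at 100 nM in SJSA-1 and 6 in U2-OS, with no other count of calls changed. Signal over background limits DDIT3 in U2-OS and CHAC1 in SJSA-1.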
